A study of Mus musculus with 79 samples.

Results

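The 84 genes for the proteins of the cytosolic ribosome were followed through 79 libraries of ribosome-bound mRNA from dopamine-receptor neurons of the mouse. They are the rows with an Rpl or Rps symbol and a number, the 3 stalk genes Rplp0, Rplp1 and Rplp2, and Rpsa, out of 25899 genes listed. Of them, 43 encode proteins of the large subunit, 32 the small subunit, 3 the stalk, and 6 are paralogs whose symbol ends in l or l1 (Rpl3l, Rpl7l1, Rpl10l, Rpl22l1, Rpl39l and Rps27l). Another 60 rows whose symbols mark pseudogenes were left out. Rps4y2, kept by its symbol and counted with the small subunit, is a transcribed pseudogene in RefSeq. Also left out were the S6 kinase genes, which do not encode ribosomal proteins.

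All mice carried a bacterial artificial chromosome transgene on a C57Bl/6J background. It encodes enhanced green fluorescent protein joined to ribosomal protein L10a, and is driven by the promoter of the D1a or the D2 dopamine receptor. An antibody to the fluorescent protein pulls down tagged ribosomes with the mRNA on them, a method called translating ribosome affinity purification. Each library is 1 pool of tissue from 3 mice that included both sexes. There were 15 libraries of D1 neurons and 16 of D2 neurons from dorsal striatum, 15 of D1 and 14 of D2 from ventral striatum, and 19 of D1 from prefrontal cortex. No group lacks the transgene, so the untagged background was not analysed here. The mice keep their own Rpl10a gene, and the table has no row for the fluorescent protein. Reads of the transgene's L10a part and of the endogenous gene therefore cannot be told apart.

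The cytosolic ribosome joins a small subunit, which reads the mRNA, to a large subunit, which forms the peptide bond. Each subunit holds ribosomal RNA and a fixed set of proteins, most of them encoded by a single active gene. Many mRNAs of these genes begin with a run of pyrimidines, the terminal oligopyrimidine tract, through which the mTOR pathway adjusts their translation. L10a forms the base of a mobile stalk on the surface of the large subunit and is widely used as a handle for purification.

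RefSeq promoter entries on GRCm38.p6 were present for 62 of the 84 genes and absent for 22. Windows of 60 bases, 30 before and 30 from the annotated start site on, are shown for the tagged gene and for 6 members whose values are described further on. Capitals mark the longest run of C and T that reaches within 20 bases of the start, where it is at least 8 bases long, and of equally long runs the one nearer the start. The first start of Rpl10a and the second of Rps27l have no such run.
Rpl10a, first start, chr17:28328441-28328500, plus strand: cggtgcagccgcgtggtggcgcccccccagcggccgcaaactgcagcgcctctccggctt
Rpl10a, second start, chr17:28328535-28328594, plus strand: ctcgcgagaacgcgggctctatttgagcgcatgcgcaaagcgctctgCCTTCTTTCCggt
Rpl15, chr14:18270957-18271016, minus strand: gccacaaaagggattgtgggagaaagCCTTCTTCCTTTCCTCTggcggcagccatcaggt
Rps10, chr17:27635215-27635274, minus strand: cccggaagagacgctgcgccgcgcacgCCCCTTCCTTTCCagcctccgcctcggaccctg
Rps27, chr3:90213619-90213678, minus strand: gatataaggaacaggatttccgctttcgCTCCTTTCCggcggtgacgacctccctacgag
Rpl31, chr1:39367821-39367880, plus strand: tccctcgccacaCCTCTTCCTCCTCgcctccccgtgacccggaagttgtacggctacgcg
Rps27l, first start, chr9:66946056-66946115, plus strand: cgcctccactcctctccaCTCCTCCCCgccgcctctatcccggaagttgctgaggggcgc
Rps27l, second start, chr9:66946383-66946442, plus strand: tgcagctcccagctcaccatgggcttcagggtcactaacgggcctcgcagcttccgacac
Rpl22l1, chr3:28805478-28805537, plus strand: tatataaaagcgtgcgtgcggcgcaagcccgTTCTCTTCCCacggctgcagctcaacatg
Such a run was present for 33 of the 62 members with an entry (53.2%), and for 23.7% of all 27025 genes in the promoter table. The letters CCGGAAG, searched on both strands over 250 bases before and 50 after the start, were found for 25 members (40.3%) and for 9.93% of all genes. The letters TATAAA, searched the same way, were found for 7 members (11.3%) and 15.7% of all genes.

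Values are CPM, a gene's reads scaled so that every library has the same total. That total exceeds the reads in the listed genes, and the sources used here do not say what else it counts. Reads in genes numbered 7.35 M to 30.8 M per library, 31.0% to 40.2% of that total. Sample names begin with 1 of 4 letter codes whose meaning the labels do not give: EM (53 libraries), OdP (14), BdP (9) and JAG (3). OdP libraries are all of D2 neurons except 1, so code and receptor overlap in part. In both striatal regions all 5 D1 markers were higher in D1 libraries and all 5 D2 markers were higher in D2 libraries. In prefrontal cortex the D1 markers (Drd1a, Pdyn, Tac1, Eya1 and Isl1) summed to a median of 48.9 CPM. That was far below the 562 and 714 CPM of D1 ventral and dorsal striatum and near the 44.7 and 33.1 CPM of the D2 libraries. Whether this list marks D1 neurons of cortex was not tested, so the sum is no measure of their capture there. In these bulk samples, fewer cells of a type and less RNA per cell cannot be told apart.

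The share of reads taken by the members divided the libraries by the code in the sample name. They took 1.04% to 2.46% of the reads in genes in EM libraries, with a median of 1.30%. In the other 26 libraries they took 0.522% to 1.28%, with a median of 0.693%. Apart from 1 OdP library labelled D1 ventral striatum (1.28%), no library outside EM passed 0.834%, and no EM library fell under 1.04%. The highest share, 2.46%, was that of EM replicate 4 of D1 dorsal striatum. By group, the median share was 1.25% in D1 and 0.948% in D2 dorsal striatum, 1.42% in D1 and 1.26% in D2 ventral striatum, and 1.15% in prefrontal cortex. These medians pool the codes, whose proportions differ between groups, and the 5 groups overlapped. Among EM libraries the medians were 1.30% in D1 and 1.25% in D2 dorsal striatum, 1.47% in D1 and 1.40% in D2 ventral striatum, and 1.17% in prefrontal cortex. There all 11 libraries of D1 ventral striatum (1.32% to 1.62%) lay above all 15 of prefrontal cortex (1.04% to 1.30%).

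**Figure D1:**
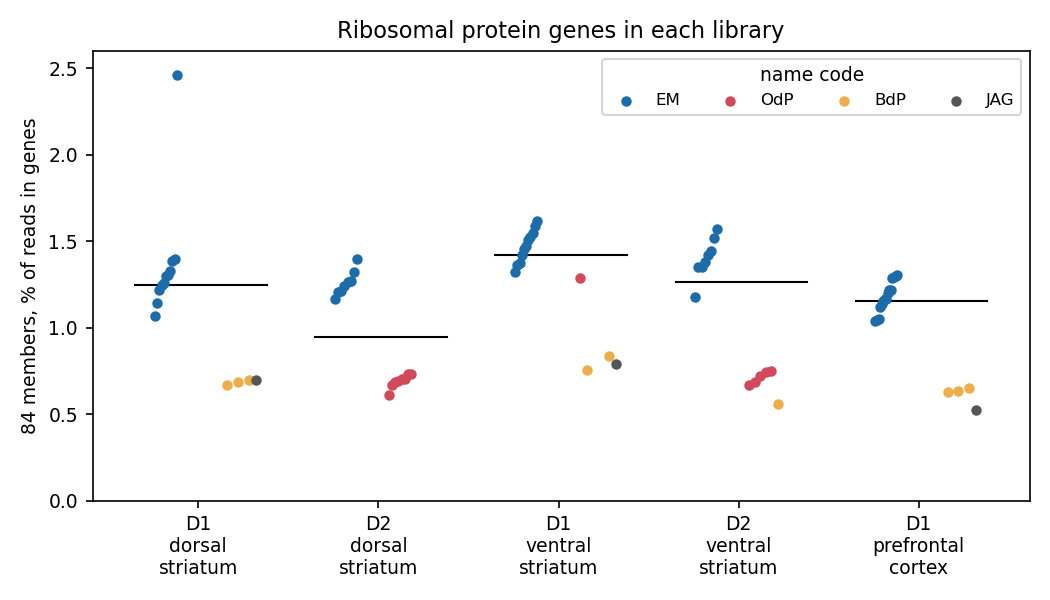
Share of reads in genes taken by the 84 members in each library (percent, vertical axis), by group and coloured by the code in the sample name; black lines are group medians. EM libraries sit between 1.04% and 2.46%, and the others between 0.522% and 1.28%.

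Of the 84 members, 81 passed the filter on low values in every comparison. The filter asked for 1 CPM or more in a number of libraries equal to the size of the smaller group. The exceptions were 3 paralogs. Rpl10l was at 0 in all libraries, Rpl39l had reads in 15 libraries and reached 1.65 CPM, and Rpl3l, the muscle form of Rpl3, had reads in 57 and reached 0.689 CPM. Differences are given on the scale of log2(CPM + 0.5) with their standard error (SE), and a gene is called at a limma p-value below 0.05 after Benjamini-Hochberg adjustment over all genes tested.

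The contrast of the codes could be read within a group for D2 neurons. In D2 dorsal striatum, 8 EM libraries were set against 8 OdP libraries: 74 of 81 members were higher in EM and 0 were lower, with a median difference of 0.87. Over all 10939 genes, 18% were higher and 12.2% lower, with a median of 0.04. In D2 ventral striatum, with 8 EM and 5 OdP libraries, 75 members were higher and 0 lower, with a median of 1.11. There 16.2% of all genes were higher and 5.89% lower, with a median of 0.14 that the median ratio scaling moved to -0.01, with 70 members then called higher beside 10.5% of all genes. Both subunits took part: in dorsal striatum 39 of 43 large-subunit, 31 of 32 small-subunit and all 3 stalk genes were higher. The EM and OdP values did not overlap for 61 of 81 members in dorsal and 62 in ventral striatum, beside 7.23% and 9.26% of all genes.

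Rps14, a protein of the small subunit's platform, had the largest difference in both regions. Its level in D2 dorsal striatum ran from 21.1 to 62.9 CPM in EM libraries (median 52.6) and from 6.17 to 18.6 CPM in OdP libraries (median 11.6). Every EM library was above every OdP library, with a log2 difference of 1.91 ± 0.23 (SE; limma adjusted p = 6.19e-06). In D2 ventral striatum the EM libraries ran from 30.6 to 82.6 CPM (median 58.8), and the 5 OdP libraries had 9.65, 11.5, 11.7, 13 and 15.1 CPM. These groups did not overlap either, with a difference of 2.17 ± 0.22 (limma adjusted p = 2.9e-06). Next came Rps10 (1.40 ± 0.21) and Rpl27 (1.37 ± 0.12) in dorsal striatum, and the stalk gene Rplp1 (1.75 ± 0.24) and Rpl37a (1.63 ± 0.17) in ventral striatum. The other stalk genes rose as well, Rplp0 by 0.75 and Rplp2 by 0.85 in dorsal striatum, and Rpsa, the laminin-receptor protein of the small subunit, by 0.87.

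A few members did not pass the test. In both regions these included Rpl10a, Rpl15 (-0.18 and -0.22), Rpl31 (0.15 and 0.09) and Rps27a, a fusion of ubiquitin and a ribosomal protein (0.58 and 0.62). Ribosomal protein genes outside the naming rule were higher in EM as well. Fau, Rpl36al and Gnb2l1 passed the test in both regions, Fau by 1.24 and 1.36. Of 14 elongation factors and other mRNAs with a terminal oligopyrimidine tract, 8 were higher and 0 lower in dorsal striatum, among them Eef1b2 (0.83 ± 0.14). Of 76 genes for mitochondrial ribosomal proteins, 47 were higher and 1 lower in dorsal striatum, with a median of 0.55. The shares of all genes there were the 18% higher and 12.2% lower given above. Of 24 genes of ribosome assembly, 2 were higher and 1 lower, and of 14 tested genes that control translation, 1 was higher and 2 lower. Some members overlap another coding gene, 12 in all, and reads shared with it cannot be told apart here. Wdr38, which overlaps Rpl35, was higher in EM by 1.36 and 1.34 beside 1.36 and 1.34 for Rpl35. Tlcd1, which overlaps Rpl23a, was higher by 0.82 and 1.15 beside 0.80 and 1.09 for Rpl23a.

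Some cell-type markers moved with the code as well. In D2 dorsal striatum Pvalb, a marker of interneurons, was higher in EM (1.38) and Gad1 lower (-0.73), and in D2 ventral striatum Mobp (1.28) and the excitatory marker Neurod2 (1.84) were higher. Of 5 D1 markers, 2 were higher in EM in dorsal (median 0.57) and 3 in ventral striatum (median 0.62), and 2 of 5 projection neuron markers were lower in each region. Their part in the difference of the members was not tested.

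Ribosomal protein mRNAs are short, and the difference between the codes varied with transcript length among other genes too. In D2 dorsal striatum, 51.5% of 571 genes outside the members with a transcript of at most 1000 bases were higher in EM, with a median of 0.50. For transcripts over 4000 bases the share was 4.03% of 3050 genes and the median -0.14. The 60 members of at most 1000 bases had a median of 0.95. In that bin 53 members (88.3%) were higher, beside the 51.5% of other genes. The part of transcript length in the difference of the members was not tested further.

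**Figure D2:**
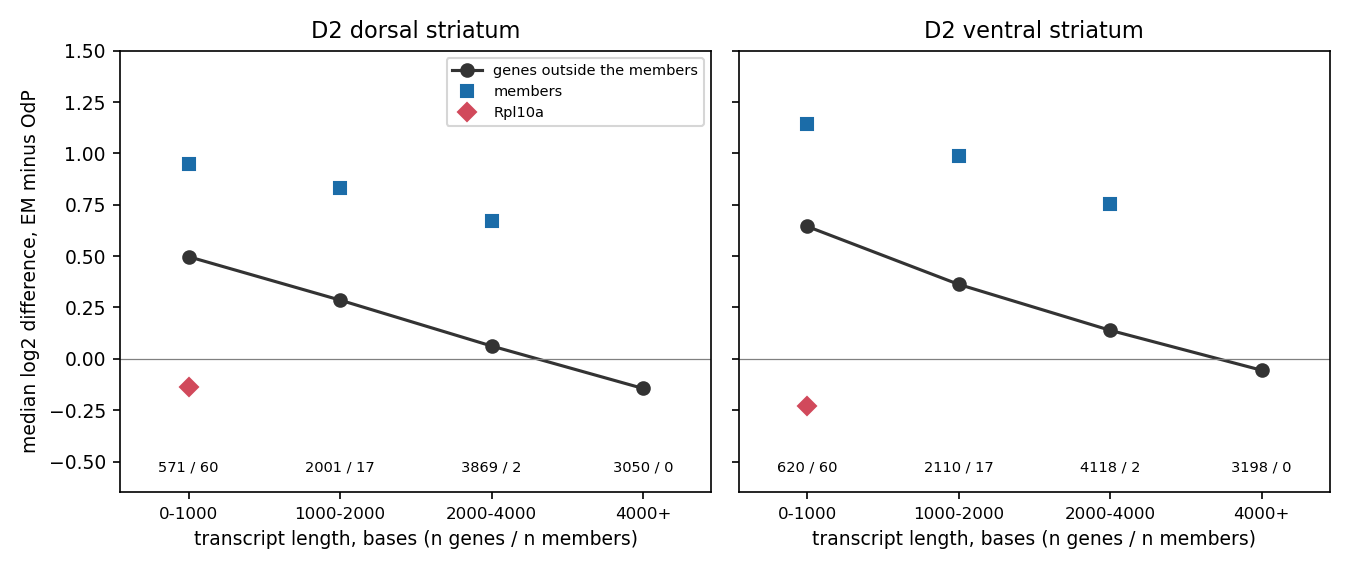
Median log2 difference of EM minus OdP libraries (vertical axis) for D2 dorsal and D2 ventral striatum, by annotated transcript length (horizontal axis, bases), for genes outside the members (black), members (blue) and Rpl10a alone (red); numbers give genes and members per bin. The black medians fall from 0.50 to -0.14 in dorsal striatum with length, and Rpl10a lies at -0.14 in the shortest bin, where the members' median is 0.95.

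Rpl10a, the gene whose protein carries the tag, was followed on its own and against the other members. In CPM it was lowest in prefrontal cortex, at 63.8 to 110 (median 90.9). It ran from 104 to 170 CPM (median 129) in D1 and from 134 to 233 (median 181) in D2 dorsal striatum. In ventral striatum it ran from 123 to 237 CPM (median 144) in D1 and from 105 to 246 (median 176) in D2 libraries. The order of the medians was thus prefrontal cortex, D1 dorsal, D1 ventral, D2 ventral and D2 dorsal striatum. All 16 D2 dorsal and all 15 D1 ventral libraries lay above all 19 of prefrontal cortex, while the striatal groups overlapped with each other. The D2 dorsal and ventral groups did not differ beyond their spread (0.07 ± 0.11, limma adjusted p = 0.673), and neither the D1 dorsal and ventral groups (-0.21 ± 0.09, adjusted p = 0.0614) nor the D1 and D2 ventral groups (-0.21 ± 0.10, adjusted p = 0.0947) passed the test. With EM libraries alone both passed, at -0.19 (limma adjusted p = 0.0211) and -0.26 (adjusted p = 0.0495), and the latter also passed without the OdP library labelled D1 (adjusted p = 0.0287). With each library's percentage of reads in genes in the fit, the latter turned positive and was not called.

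Per kilobase of transcript, the median level of Rpl10a ranked 1 among 83 members with a length in D2 dorsal striatum (219 CPM per kilobase). It ranked 3 in D2 ventral striatum, 8 in D1 dorsal, 10 in D1 ventral striatum and 14 in prefrontal cortex (110 CPM per kilobase). Rpl41, the shortest ribosomal protein, was highest in the other 4 groups, at 206 to 253 CPM per kilobase. These medians pool the codes. Among EM libraries Rpl10a ranked 1 per kilobase in D2 dorsal, 5 in D2 ventral, 10 in D1 dorsal, 10 in D1 ventral striatum and 14 in cortex. Ranked by CPM within each library, its median place was 5 in EM and 1 in the other libraries of D1 dorsal striatum, 2.5 and 1 in D2 dorsal striatum, and 10 and 2 in prefrontal cortex.

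The level of Rpl10a was also set against the mean log2 CPM of the other 80 members in the same library. This ratio is a description with no test. In log2 units it had a median of 1.62 in D1 dorsal striatum (0.24 to 2.96), 2.61 in D2 dorsal striatum (1.70 to 3.35), 1.52 in D1 ventral striatum (1.22 to 2.96), 1.93 in D2 ventral striatum (1.24 to 3.36) and 1.18 in prefrontal cortex (0.65 to 2.74). Among EM libraries, the medians were 1.49 in D1 and 2.00 in D2 dorsal striatum, 1.48 in D1 and 1.74 in D2 ventral striatum, and 1.15 in prefrontal cortex. The code divided it as it divided the share of reads: 0.24 to 2.44 in EM libraries and 2.15 to 3.36 in the others. Within EM libraries, all 8 of D2 dorsal striatum lay above all 11 of D1 ventral striatum and all 15 of prefrontal cortex. The value of 0.24 belongs to the library with the highest share of members, in which Rpl10a, at 104 CPM, was the lowest of its group, next to 106 CPM in another library. Against OdP libraries, Rpl10a in EM libraries differed by -0.14 ± 0.13 in D2 dorsal striatum (limma adjusted p = 0.433) and by -0.23 ± 0.16 in D2 ventral striatum (adjusted p = 0.324). That placed it 80 and 81 among the 81 members from the highest difference down, 1.02 and 1.34 below the median of the others. Rpl15 was close to it in both regions. In D2 ventral striatum its 5 OdP values were 156, 177, 190, 200 and 246 CPM, and the EM values ran from 105 to 212.

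**Figure D3:**
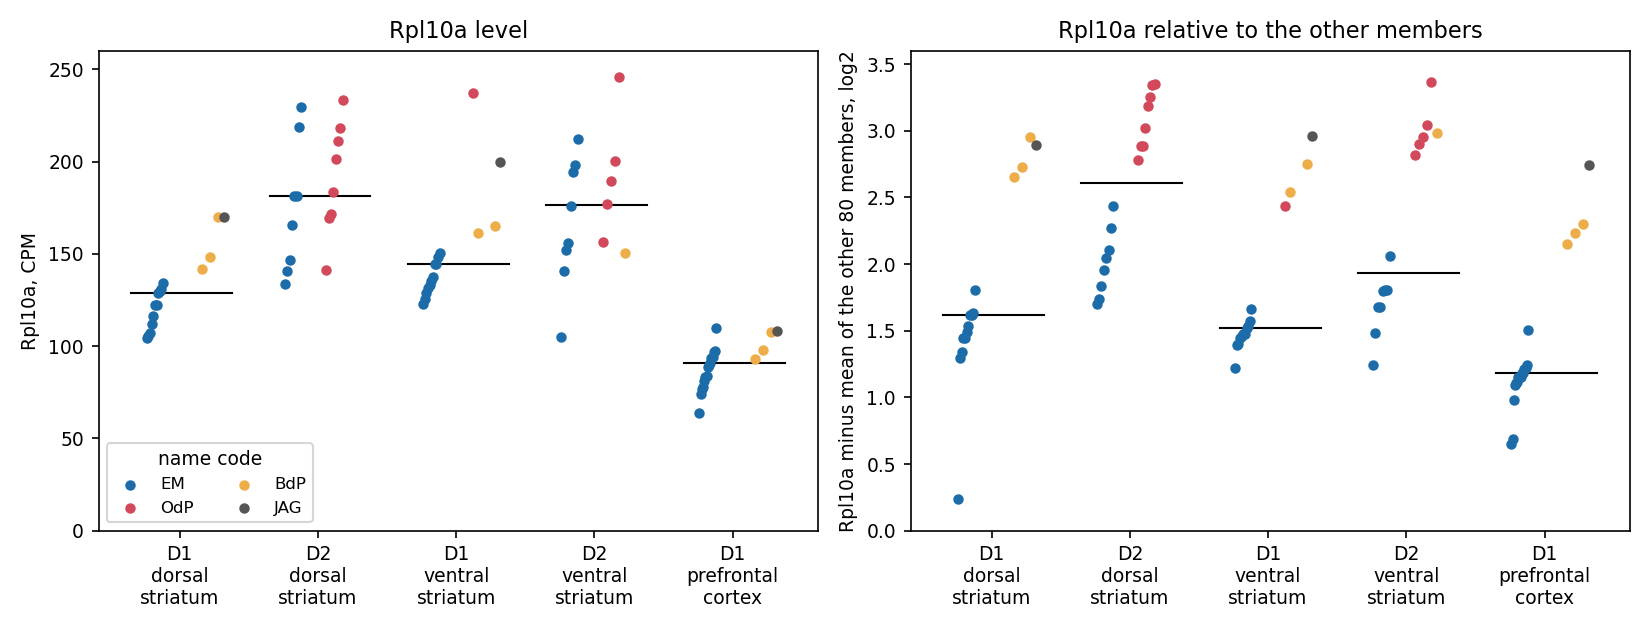
Left, Rpl10a in CPM in each library; right, log2 of Rpl10a minus the mean log2 CPM of the other 80 members in that library; groups on the horizontal axis, colours for the code in the sample name, black lines for group medians. Prefrontal cortex is lowest on the left (median 90.9 CPM), and on the right EM libraries lie between 0.24 and 2.44 and the others between 2.15 and 3.36.

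Whether Rpl10a follows the receptor gene whose promoter drives the transgene was examined across the EM libraries of each group. Pearson's r with Drd1a was 0.24 in D1 dorsal striatum (n = 11, permutation p = 0.478), 0.58 in D1 ventral striatum (n = 11, permutation p = 0.0646) and 0.27 in prefrontal cortex (n = 15, permutation p = 0.305). With Drd2 it was 0.11 in D2 dorsal striatum (n = 8, exact permutation p = 0.802) and -0.05 in D2 ventral striatum (n = 8, exact permutation p = 0.912). Spearman's rho was 0.26 (permutation p = 0.435), 0.61 (p = 0.0512), 0.21 (p = 0.451), 0.33 (exact p = 0.428) and -0.21 (exact p = 0.619) in that order. None of the 5 relations passed the two-sided test, and the lowest Benjamini-Hochberg adjusted permutation p was 0.323 for r and 0.256 for rho. Without the 2 libraries farthest from the median of the receptor gene, r in D1 ventral striatum was 0.20, and the other values lay between -0.06 and 0.12.

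D1 and D2 neurons of dorsal striatum differed in few members, and Rpl10a was the one that was lower in D1. Its values of 104 to 170 CPM in D1 and 134 to 233 CPM in D2 libraries overlapped, and 10 of 16 D2 libraries were above every D1 library. The difference was -0.49 ± 0.09 (limma adjusted p = 0.000102), and -0.53 ± 0.11 (adjusted p = 0.00121) with EM libraries alone. It was the lowest of all 81 members in both fits. Over all libraries 4 members were higher in D1, where 12.8% of all genes were higher and 13% lower. The stalk gene Rplp1 was higher by 0.78 ± 0.29, Rpsa by 0.51 ± 0.19 and Rpl7a by 0.41 ± 0.15, and the fourth was Rps4y2 (0.86 ± 0.21). Rpl7a is a large-subunit protein. With EM libraries alone 1 member was higher, Rps4y2, and 1 lower, Rpl10a, beside 6.48% and 5.78% of all genes. The values of Rplp1, Rpsa and Rpl7a were then 0.58, 0.28 and 0.22 and missed the threshold. Without EM replicate 4 of D1 dorsal striatum, 1 member was higher and 1 lower over all libraries, beside 12.5% and 12.2% of all genes.

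Rps4y2, named Rps4l in RefSeq and listed there as a transcribed pseudogene, is a near copy of Rps4x and lies on chromosome 6 (148354656 to 148355596, GRCm38.p6) within the span of Tmtc1. How reads shared with Rps4x or Tmtc1 were counted is not given in the sources used here, so its values are uncertain. Tmtc1 itself was lower in D1 than in D2, by -0.66 in dorsal and -0.61 in ventral striatum. Rps4y2 was higher in D1 in ventral striatum too, at 2.37 to 7.39 CPM (median 5.19) against 0.638 to 2.76 CPM (median 1.74) in D2 libraries. All but the lowest of the 15 D1 libraries were above every D2 library (1.25 ± 0.17, limma adjusted p = 5e-07).

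In ventral striatum more members and more genes of all kinds were called between D1 and D2 neurons. Over all libraries 19 members were higher and 2 lower in D1, with 24.1% and 23.6% of all genes. Among EM libraries 12 were higher and 17 lower, beside 16.4% and 23.7% of all genes. These 4 counts of members were at or below the shares of all genes. The 2 fits called 12 members in the same direction, but EM libraries are part of both, so this agreement is not independent. The same count over all genes is not given here. The members' median was 0.21 over all libraries and -0.09 with EM alone, where the medians of all genes were 0.02 and -0.05.

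Rps10, a protein of the small subunit's beak, was higher in D1 in both fits. Its values ran from 16.1 to 52.5 CPM (median 43.6) in D1 and from 6.3 to 34.0 CPM (median 20.0) in D2 libraries, and 10 of 15 D1 libraries were above every D2 library. The difference was 1.12 ± 0.23 (limma adjusted p = 0.000173), and 0.86 ± 0.12 with EM libraries alone. Rpl8, a large-subunit protein near the peptidyl transferase centre, was higher by 0.82 ± 0.21 over all and by 0.60 ± 0.11 in EM libraries. Rpl3, Rpl7a, Rpl11, Rpl13, Rpl18, Rpl36 and Rplp2 were also higher in both fits. Rplp1 (0.76 ± 0.31) and Rpsa (0.55 ± 0.18) were called over all libraries and not with EM alone.

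Members lower in D1 ventral striatum were led by the paralog Rps27l, a p53-responsive relative of Rps27. It ran from 2.00 to 4.09 CPM (median 3.14) in D1 and from 1.35 to 10.5 CPM (median 5.20) in D2 libraries. The difference was -0.65 ± 0.19 (limma adjusted p = 0.00519), and -0.97 ± 0.16 with EM alone. Rpl15 was lower by -0.44 ± 0.17 over all libraries (adjusted p = 0.0335), and at -0.48 ± 0.23 missed the threshold with EM alone. In EM libraries Rps28 ran from 25.0 to 33.2 CPM in D1 and from 33.5 to 64.7 CPM in D2 neurons. These values did not overlap (-0.68 ± 0.11, adjusted p = 3.85e-05). Rpl35a (-0.72 ± 0.16) and the paralog Rpl22l1 (-0.66 ± 0.15) were lower in EM libraries as well. When reads in genes as a percentage of each library's total entered the fit, 1 member was called in this comparison, as higher, beside 5.64% of all genes. Scaling to reads in genes moved the median of all genes from 0.02 to 0.13, and 30 members were then higher and 1 lower over all libraries, beside 32.4% and 16.6% of all genes. In EM libraries that scaling gave 22 higher and 9 lower, beside 25.0% and 16% of all genes. Scaled by the median ratio, 16 were higher and 12 lower in EM libraries, beside 20.8% and 19.4%.

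Markers of other cells differed between D1 and D2 libraries. All 5 markers of excitatory cortical neurons were higher in D1 in both striatal regions. Their summed level was 33.2 to 140 CPM in D1 and 1.56 to 37.1 CPM in D2 dorsal striatum, and 18.1 to 115 CPM in D1 and 3.92 to 84.5 CPM in D2 ventral striatum. The oligodendrocyte gene Mobp was lower in D1, by -0.81 in dorsal and by -1.35 in ventral striatum. All 3 markers of cholinergic interneurons were lower in D1 ventral striatum (median -2.02), as was the 1 tested in dorsal striatum (-2.28). Of 4 tested GABA interneuron markers, 3 were higher and 1 lower in D1 dorsal striatum (median 1.22), and 0 were called in ventral striatum. The sum over the 5 listed GABA interneuron markers went the other way, at medians of 108 CPM in D1 and 165 CPM in D2 dorsal striatum. Among EM libraries these were 103 and 107 CPM. The part of all these markers in the differences of the members was not tested.

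Between dorsal and ventral striatum, the members called over all libraries as deposited were lower on the dorsal side. In D1 neurons 0 members were higher and 4 lower over all libraries, where 10.1% of all genes were higher and 24.5% lower. These were Rpl10 (-0.43 ± 0.12), Rpl3 (-0.38 ± 0.14), Rpl24 (-0.30 ± 0.09) and Rpl4. Rpl10, which helps to form the site that binds aminoacyl-tRNA, ran from 22.1 to 60.6 CPM (median 37.0) in dorsal and from 38.8 to 74.8 CPM (median 50.0) in ventral striatum. With EM libraries alone 0 were higher and 10 lower, beside 9.48% and 21.9% of all genes, and Rpl10a was among the 10 (-0.19 ± 0.06, limma adjusted p = 0.0211). The library with the highest share of members weighed on this count: without it 17 members were lower over all libraries and 38 with EM alone, beside 26.3% and 24.4% of all genes. Scaled by the median ratio, the median of all genes moved from -0.12 to -0.01, and 1 member was called lower beside 14.5% of all genes. edgeR on the recovered reads called 0, with 2 members under an unadjusted p of 0.05, beside 13.2% of all genes called lower.

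In D2 neurons 0 members were higher and 7 lower in dorsal striatum, beside 7.93% and 20.6% of all genes. Over all libraries the largest differences were those of paralogs. Rps27l ran from 0.913 to 5.24 CPM (median 2.87) in dorsal and from 1.35 to 10.5 CPM (median 5.20) in ventral striatum (-0.81 ± 0.21, limma adjusted p = 0.00312). Rpl22l1, a close relative of Rpl22, ran from 9.18 to 27.9 CPM (median 13.5) and from 12.4 to 52.3 CPM (median 23.4) in the same order (-0.72 ± 0.18, adjusted p = 0.00213). Both pairs of ranges overlapped. Rpl35a was lower by -0.60 ± 0.23, and the others were Rpl34, Rps20, Rps7 and Rpl24. In EM libraries alone 0 were higher and 16 lower, beside 4.65% and 15.2% of all genes, with Rps27l at -1.02 ± 0.20 and Rpl22l1 at -0.95 ± 0.21. In OdP libraries alone 3 members were called, all lower in dorsal striatum: Rpl27 (-0.47 ± 0.13), Rps7 (-0.35 ± 0.11) and Rps20 (-0.33 ± 0.12), beside 12.0% of all genes called lower. There Rps27l had a difference of -0.26 ± 0.28 (limma adjusted p = 0.558), Rpl22l1 of -0.40 ± 0.18 (adjusted p = 0.130) and Rpl35a of -0.24 ± 0.20 (adjusted p = 0.430). The third paralog that passed the filter, Rpl7l1, was not called in this comparison (-0.23 ± 0.16). Scaled by the median ratio, the median of all genes moved from -0.12 to 0.01, and 2 members were called lower over all libraries beside 11.9% of all genes. In EM libraries that scaling left 2 members higher and 5 lower, beside 8.27% and 7.72% of all genes.

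Whether the receptor difference itself differed between the regions was tested as an interaction, D1 minus D2 in dorsal striatum minus the same in ventral striatum. Over all libraries limma called 0 members, beside 1.93% of genes with a positive and 0.707% with a negative term. There were 3 members under an unadjusted p of 0.05, and edgeR called 1 with a positive term beside 1.87% of genes. Among EM libraries limma called 1 member with a positive term, Rps27l (1.19 ± 0.27, adjusted p = 0.0092), beside 1.60% of genes. It called 1 with a negative term, Rpl3 (-0.58 ± 0.14, adjusted p = 0.019), beside 0.359% of genes. Over all libraries their terms were 0.83 ± 0.28 (adjusted p = 0.093) and -0.54 ± 0.26 (adjusted p = 0.306). In EM libraries Rps27l ran from 2.34 to 9.04 CPM in D1 and from 2.45 to 5.24 CPM in D2 dorsal striatum, and from 2.09 to 4.09 CPM in D1 and from 3.83 to 10.5 CPM in D2 ventral striatum. D2 ventral striatum was thus the group with the highest values.

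Between prefrontal cortex and dorsal striatum, few members of D1 neurons were called over all libraries, and the number lower in cortex varied with the libraries and the scaling. Over all libraries 1 member was higher and 5 lower in cortex, beside 32.3% and 22.5% of all genes. In the EM libraries 1 was higher and 17 lower, beside 31.6% and 20.9%. All 6 members of the first count were called in the same direction there, though these libraries are part of the first fit too. The 5 of 81 lower over all libraries were a smaller share than that of all genes, and the 17 of 81 in EM libraries about the same share. Rpl10a was lower by -0.52 ± 0.08 (limma adjusted p = 2.58e-07), with 12 of 15 dorsal libraries above every cortical library. Rpl31 ran from 65.7 to 161 CPM (median 78.5) in cortex and from 100 to 260 CPM (median 132) in dorsal striatum (-0.72 ± 0.11, adjusted p = 2.26e-07). Its gene overlaps Tbc1d8, which was lower in cortex by -2.42, and counting by strand is not given in the sources used here. Rps27, a small-subunit protein with a zinc finger, was lower by -0.52 ± 0.20. Rps15a was the member that was higher, at 42.3 to 109 CPM (median 73.9) in cortex and 26.0 to 111 CPM (median 54.4) in dorsal striatum (0.44 ± 0.14, adjusted p = 0.0091). Without the D1 dorsal library highest in members, 4 were higher and 4 lower over all libraries, beside 32.8% and 22.6% of all genes. edgeR called 0 higher and 18 lower over all libraries, beside 26.8% and 29.8% of all genes. In EM libraries 0 were higher and 28 lower when scaled by the median ratio, beside 26.0% of all genes called lower, and 0 were higher and 36 lower with edgeR, beside 28.5%.

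Against ventral striatum the difference took in far more members, all of one direction over all libraries. There 0 members were higher in cortex and 33 lower, beside 27.7% and 35.1% of all genes, and the members' median was -0.31 against -0.07 for all genes. By part, 16 of 43 large-subunit, 14 of 32 small-subunit, 2 of 3 stalk genes and 1 of 3 paralogs were lower. With EM libraries alone, which the fit over all libraries includes, 1 was higher and 55 lower, beside 29.1% and 34.6% of all genes. All 33 were among the 55. The share of members called lower over all libraries, 33 of 81, was near that of all genes, and that in EM libraries, 55 of 81, was above it.

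Rpl10a had the largest difference of all members over all libraries, and ranked 7 from the lowest in EM libraries. Its 63.8 to 110 CPM in cortex did not overlap the 123 to 237 CPM of D1 ventral striatum (-0.73 ± 0.08, limma adjusted p = 1.14e-10). Rps27 ran from 12.9 to 61.1 CPM (median 38.9) in cortex and from 27.7 to 77.2 CPM (median 64.0) in ventral striatum (-0.73 ± 0.17, adjusted p = 0.000216). Rpl31 ran from 65.7 to 161 CPM (median 78.5) and from 112 to 224 CPM (median 137) in the same order (-0.72 ± 0.09, adjusted p = 8.42e-09), with Tbc1d8 lower by -1.93. Both overlapped. The stalk genes Rplp1 (-0.70 ± 0.26) and Rplp2 (-0.65 ± 0.18), which with Rplp0 recruit elongation factors, and Rpsa (-0.40 ± 0.09) were lower, while Rplp0 had a difference of 0.10 ± 0.11. In EM libraries the groups did not overlap for 8 of 81 members, a smaller share than the 17.9% of all genes. Among the 8 were Rps21, at 27.5 to 40.8 CPM in cortex and 44.5 to 63.5 CPM in ventral striatum, and Rpl11, a protein that can also bind Mdm2, at 50.4 to 81.4 and 84.1 to 102 CPM. Rpl22 was the member that was higher in EM libraries of cortex (0.21 ± 0.08, adjusted p = 0.0161), and its paralog Rpl22l1 was lower (-0.36 ± 0.12, adjusted p = 0.0106).

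**Figure D4:**
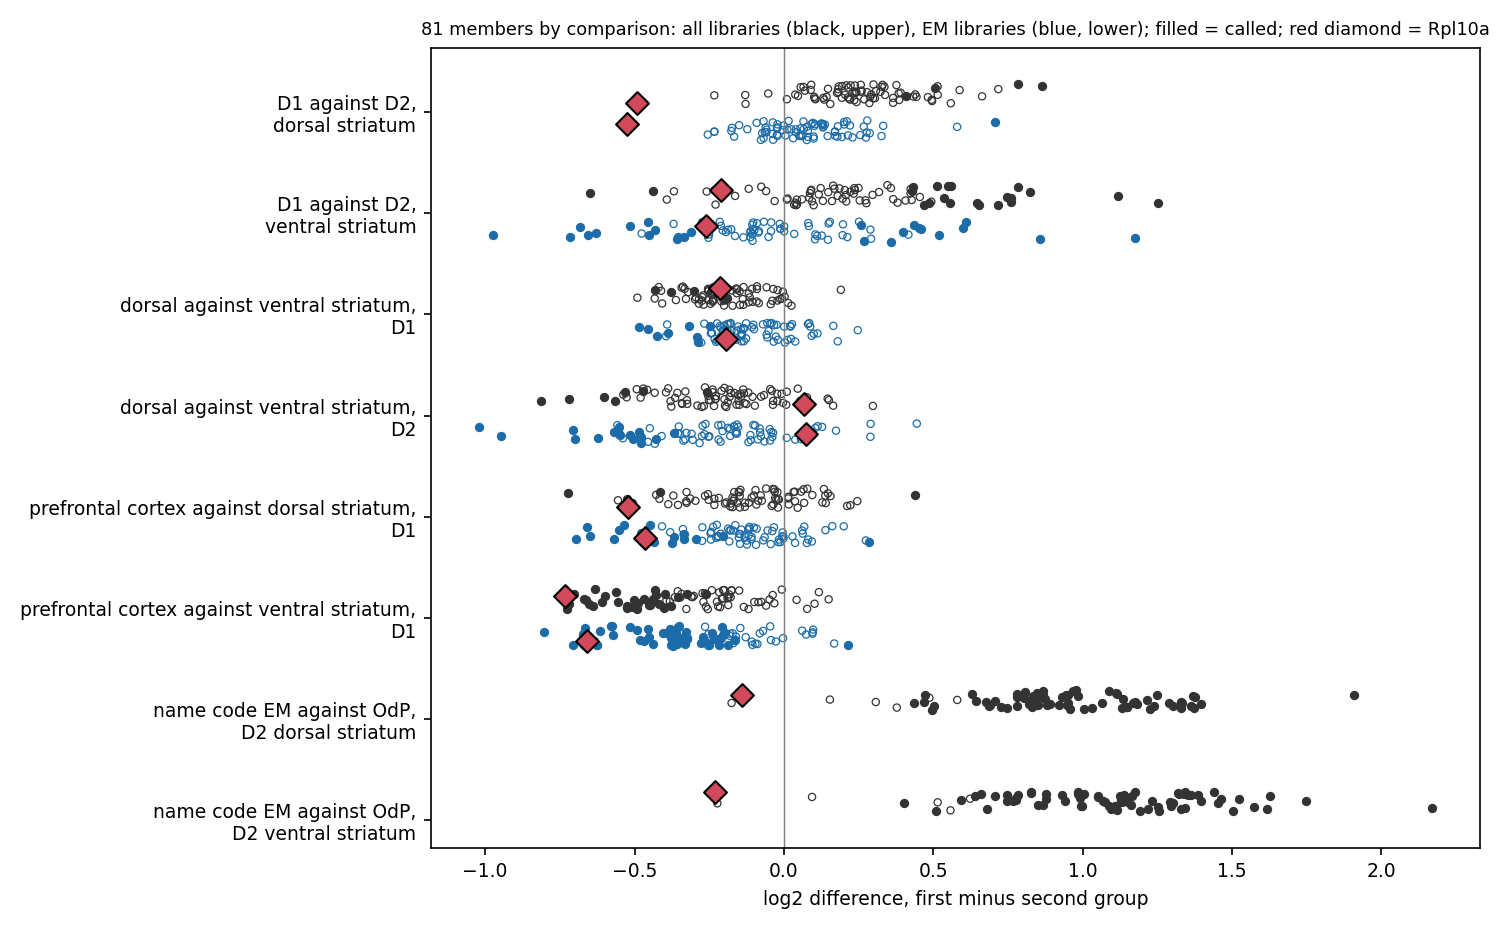
Log2 difference of each of the 81 members (horizontal axis) in 8 comparisons (rows), first group minus second, over all libraries (black) and EM libraries alone (blue); filled points are called, red diamonds are Rpl10a. The members lie right of 0 in the rows of EM against OdP, with medians of 0.87 and 1.11, while Rpl10a lies at -0.14 and -0.23, and it is the lowest member for D1 against D2 in dorsal striatum.

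Markers of other cells moved with region as well. In cortex all 5 markers of excitatory cortical neurons and all 5 of astrocytes were higher than in either striatal region, and all 5 of striatal projection neurons were lower. The astrocyte markers summed to 9.40 to 55.4 CPM in cortex and to 2.12 to 8.77 CPM in D1 ventral striatum. Of 5 GABA interneuron markers 4 were higher in cortex, and all 5 D1 markers were lower. Oligodendrocyte markers summed to a median of 39.7 CPM in cortex, 73.5 CPM in D1 dorsal and 46.7 CPM in D1 ventral striatum. Choroid plexus markers summed to medians of 0.452, 5.00 and 3.48 CPM in that order. Between dorsal and ventral striatum all 5 markers of striatal projection neurons were higher on the dorsal side in D1 and in D2 libraries. In D1 libraries 3 of 3 tested oligodendrocyte markers (median 0.58) and 3 of 4 tested GABA interneuron markers (median 0.72) were higher in dorsal striatum as well. In D2 libraries 2 of 3 cholinergic markers (median -0.70) and 2 of 4 GABA interneuron markers (median -0.17) were lower there, and 1 of 5 oligodendrocyte markers was higher. All 5 D2 markers were lower in D1 dorsal than in D1 ventral libraries (median -1.15), and 3 of 5 D1 markers were lower in D2 dorsal than in D2 ventral libraries. No endothelial marker passed the filter in any comparison. Their part in the differences of the members was not tested.

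Other genes of translation were followed as lists. Of the same 14 mRNAs with a terminal oligopyrimidine tract, 0 were higher and 8 lower in cortex than in D1 ventral striatum, with Eef1b2 at -0.52 ± 0.15 and Eef1a1, the factor that delivers aminoacyl-tRNA, at -0.48 ± 0.06. In the same comparison 36 of 76 genes for mitochondrial ribosomal proteins were lower and 2 higher. Of 24 genes of ribosome assembly, 9 were lower and 1 higher, near the 35.1% of all genes called lower, with Ubtf, a factor of ribosomal RNA transcription, at -0.61 ± 0.09 and Ncl, nucleolin, at -0.57 ± 0.07. Among 14 tested genes that control translation, 5 were higher and 2 lower, beside 27.7% and 35.1% of all genes, with Rptor, the subunit of mTOR complex 1 that binds its substrates, at 0.37 ± 0.08 and Eif4ebp2 at -0.34 ± 0.13. Between D1 and D2 neurons of dorsal striatum, 0 of the 14 control genes were called, beside 2 higher and 4 lower of the 24 assembly genes, a share near the 12.8% and 13% of all genes, with Rrs1 at -0.60 ± 0.21 and Fbl, fibrillarin, at 0.52 ± 0.18. With EM libraries alone limma called 0 of the 24, with Rrs1 at -0.82 (adjusted p = 0.0687) and Fbl at 0.27 (adjusted p = 0.303). In ventral striatum 4 of the 14 control genes were higher and 2 lower in D1, near the 24.1% and 23.6% of all genes, with Eif2s1, a subunit of the factor that brings initiator tRNA, at -0.72 ± 0.11 and Eif4g1 at 0.49 ± 0.09. Both were called in the same direction with EM libraries alone (-0.68 and 0.41), where 1 of the 14 was higher and 3 lower.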

How the data were processed

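Messenger RNA bound to tagged ribosomes was sequenced in 79 libraries, each from a pool of 3 mice. Per the labels' protocols, cDNA was made with the Ovation RNA-Seq System V2. Per the submitters' processing notes, Trim Galore 0.4.2, cutadapt 1.9.1, FastQC and HISAT2 (listed as 0.12.2) were used with GRCm38. The counting program, its annotation and its handling of strand and of reads with several matches are not given in the sources used here. The authors deposited CPM per gene, that is reads scaled to one common library total. These values are whole multiples of 1 read's worth in each library (100% whole within 0.01), so reads per gene were recovered. The CPM denominators exceed the reads in genes, which make up 31.0% to 40.2% of them.

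Groups were taken from receptor and region labels. Replicate numbers follow accession order and pair nothing, and the labels do not say whether regions share mice. Where libraries share mice, p-values measure only the spread between libraries. The members and lists were chosen with earlier results of these data known. Genes at 1 CPM or more in as many libraries as the smaller group has were fitted with limma 3.58.1 (R 4.3.3) on log2(CPM + 0.5), with an intensity trend and Benjamini-Hochberg adjustment over all genes at 0.05. Each comparison used its own groups, and the interaction used the 4 striatal groups. The rule for naming took Rpl10a, the paralogs, Rpsa, the stalk genes, the called members of the interaction, per comparison and direction the 3 called members with the largest differences among those whose higher group averaged 5 CPM or more, and per list the 2 called genes with the largest differences. Other members named were chosen after their values were seen. edgeR 4.0.16 on the recovered reads called 2966 genes for D1 against D2 in dorsal striatum, where limma called 2871. Alternatives were pseudocounts of 0.1 and 1, other scalings, no filter, EM or OdP libraries alone, and a covariate for name code or for each library's percentage of reads in genes. EM libraries under other scalings or with title sets as a block, and fits without 1 library, were added after seeing the data. The scripts were tested on simulated data. Correlations used permutation with 100000 resamples, or exact enumeration for n = 8.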

Additional observations from a re-analysis of the deposited data

Results flagged for a closer look

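Among EM libraries, the difference between D1 and D2 neurons was not the same in dorsal and ventral striatum for 2 members, by the interaction test over all genes. For Rps27l the term, D1 minus D2 in dorsal minus the same in ventral striatum, was 1.19 ± 0.27 (limma adjusted p = 0.0092). For Rpl3 it was -0.58 ± 0.14 (limma adjusted p = 0.019). Over all genes in this fit, 1.60% were called with a positive and 0.359% with a negative term. Such calls were thus not confined to the members. Whether members were called more often than other genes was not tested. Over all libraries neither term passed the threshold.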

How the results depend on the processing

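Counts of members called (higher and lower together) moved by over 1.5 times under the settings given here, and the cause was not tested. The share of all genes called moved with the setting as well, and is printed in the results above for some of these fits. For the others, among them all fits with name code or without the low-value filter, it is not given here. Those counts have no reference share. For D1 against D2 in dorsal striatum, 5 members fell to 2 without the low-value filter, with EM libraries alone (also under the median ratio, reads in genes or edgeR), with name code or share of reads in genes in the fit, and without D1 dorsal replicate 4 (EM alone or all libraries). In ventral striatum, 21 became 1 with that share in the fit. For dorsal against ventral striatum in D1, 4 became 1 (median ratio), 0 (edgeR), 10 (EM), 19 (name code), 7 (share of reads in genes), 17 (without replicate 4), and in EM libraries 1 (median ratio), 11 (reads in genes), 1 (edgeR) and 38 (without replicate 4). In D2, 7 became 2 (median ratio), 4 (reads in genes), 4 (reads in genes outside the members), 2 (edgeR), 4 (no filter), 16 (EM), 3 (OdP), 20 (name code), 13 (share) and 14 (EM, reads in genes). For prefrontal cortex against dorsal striatum, 6 became 14 (median ratio), 18 (edgeR), 18 (EM), 24 (name code), and in EM libraries 28 (median ratio), 19 (reads in genes), 36 (edgeR) and 21 (without replicate 4). Against ventral striatum, 33 became 56 (EM), 61 (name code), 54 (EM, median ratio) and 61 (EM, reads in genes). The interaction went from 0 to 1 with edgeR or name code, and to 2 with EM alone, also under the median ratio, reads in genes, edgeR or without replicate 4.

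Rpl10a for D1 against D2 in ventral striatum passed the threshold with EM alone (-0.26, limma adjusted p = 0.0495) and without the OdP library labelled D1 (-0.26, adjusted p = 0.0287), and turned to 0.075 (adjusted p = 0.756) with share of reads in genes in the fit. For dorsal against ventral striatum in D1 it passed when scaled to reads in genes (-0.22, adjusted p = 0.0274) or to those outside the members (-0.22), with EM alone (-0.19), name code (-0.18) or share (-0.23) in the fit, and in EM libraries scaled to reads in genes (-0.21) or without replicate 4 (-0.18). In D2 it turned from 0.07 to -0.019 with OdP alone (adjusted p = 0.938). Numbers in EM titles run in consecutive sets over the regions, with no word in the labels on shared mice. With these sets as a replicate block, a fit added after seeing the data, EM libraries gave 13 and 16 members for dorsal against ventral striatum in D1 and D2, and 12 and 55 for cortex against dorsal and ventral striatum. Rpl10a in D1 dorsal against ventral striatum was then -0.19 (limma adjusted p = 0.0129). The shares of all genes called in these block fits are not given here, so their member counts have no reference. Deviations from group means correlated over 0.1 within 9 of 11, 5 of 8, 6 of 11 and 5 of 11 sets. In that order the median r within sets was 0.19, 0.18, 0.12 and 0.099. Between sets it was -0.020, 0.031, 0.012 and -0.005. Libraries of a set thus tended to deviate together. Whether they share mice was not settled, and the region p-values of the main fits leave the sets out. For D1 against D2 no such sets exist. The reads in genes, 7.35 M to 30.8 M, limit the members at low CPM, among them Rps4y2 and Rps27l, most.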
